A study of Mus musculus with 6 samples.

Results

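The genes of the hyaluronan system and of the small leucine-rich proteoglycans were examined in mouse myoblasts with and without stretching. The 10 genes were taken by symbol from the 22375 rows of the expression table, namely the synthases Has1, Has2 and Has3, the hyaluronidase Hyal2, the receptor Cd44, the large proteoglycan Vcan, and the small proteoglycans Bgn, Dcn, Lum and Fmod. RNA sequencing was available for 6 libraries of C2C12 cells, an established mouse myoblast line. The CON group held 3 libraries of cells that were not stretched. The 4H group held 3 libraries of cells stretched cyclically at 15% elongation for 4 h on elastic plates coated with poly-lysine, a setting that the study used to imitate mechanical overload. All 6 libraries came from this 1 cell line, with no genotype, siRNA or drug named in their labels. The question addressed here was how these genes differed between stretched and unstretched cells. The rabbit diaphragms and the shorter stretching times of the study were not analysed here.

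Hyaluronan is a long, unsulfated sugar chain that is made at the plasma membrane by the HAS enzymes from UDP-glucuronic acid and UDP-N-acetylglucosamine and is pushed out of the cell as it grows. Outside the cell it fills the pericellular coat, binds the receptor CD44 and the large proteoglycan versican, and is cut by hyaluronidases. Small leucine-rich proteoglycans are core proteins of leucine-rich repeats, many of which carry chondroitin, dermatan or keratan sulfate chains and bind collagen fibrils. In skeletal muscle these molecules lie mostly in the connective tissue around the fibres, and hyaluronan is also known from the matrix around activated satellite cells.

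The deposited unit was FPKM, fragment counts scaled by transcript length and by the mapped fragments of the library, so levels are given per length and may be compared between genes. The FPKM of a library summed to 395790 to 397260 in the CON group and to 385146 to 387516 in the 4H group, and sequencing depth is unknown because FPKM holds no counts. All 6 myoblast markers, among them Myod1 and Des, were above 0 in every library, and their summed FPKM was 143.6 to 145.9 in the CON group and 181.5 to 191.9 in the 4H group. Of these, Myod1, Des, Cdh15 and Chrna1 rose, Myf5 fell from 15.8 ± 0.851 to 9.82 ± 1.13 FPKM (limma with Benjamini-Hochberg adjusted p = 0.000347), and Ncam1 did not pass the test. Of the macrophage markers, Ptprc and Adgre1 were listed at 0 in every library, while the list as a whole, mostly Cd68, summed to 6.82 to 8.55 FPKM in the CON group and 16.6 to 18.6 in the 4H group. Both macrophage markers that could be tested were differentially expressed and higher, Cd68 at 7.57 ± 0.892 and 16.4 ± 1.29 FPKM (limma with Benjamini-Hochberg adjusted p = 4.11e-05) and Csf1r at 0, 0 and 0.0272 FPKM in CON and 1.48, 0.966 and 0.792 FPKM in 4H (adjusted p = 0.000231). Csf1r passed the filter through its 4H level only. The 6 fibroblast markers summed to 247.6 to 313.9 FPKM in the CON group and 175.4 to 207.6 in the 4H group, nearly all of it Ly6a, with Tcf21 at 0 and Thy1, Pi16 and Dpt below 0.1 in every library. Unlike the sum, Pdgfra rose from 3.15 ± 0.288 to 5.08 ± 0.317 FPKM (adjusted p = 0.000753). The 6 markers of differentiating myocytes and myotubes summed to 0.729 to 1.11 FPKM in the CON group and 1.25 to 1.81 in the 4H group, with Mymk at 0.525 ± 0.165 and 1.01 ± 0.12 FPKM, Tnnt3 at 0.0779 ± 0.0722 and 0.401 ± 0.184 FPKM, and Myog in the other direction at 0.217 ± 0.0743 and 0.0265 ± 0.0459 FPKM. Endothelial markers reached a sum of at most 0.387 FPKM, and the adipocyte list, mostly Pparg, summed to 7.47 to 9.27 FPKM in the CON group and 11.1 to 11.7 in the 4H group. The part of these markers in the results below was not tested, and fewer cells of a type cannot be told apart from less RNA per cell.

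Promoter sequences are shown for Has1, Cd44 and Bgn, which stand for the synthases, the receptor and the small proteoglycans among the 5 members that changed. The RefSeq promoter table (GRCm38.p6) held 6 of the 10 members and had no entry for Has2, Has3, Dcn and Lum. Each stretch runs 5′ to 3′ on the strand of the gene and ends just before the first annotated start of transcription. For Has1 this is the start in GENCODE M21, so the last 17 bases before the RefSeq start, which GENCODE places in the transcript, are left off. They lie at chr17:17855206-17855438 (minus strand) for Has1, with 233 bases and 58.8% G or C, at chr2:102901666-102901915 (minus strand) for Cd44, with 250 bases and 56.4% G or C, and at chrX:73483351-73483600 (plus strand) for Bgn, with 250 bases and 64.4% G or C. Capitals mark the motif matches.
Has1: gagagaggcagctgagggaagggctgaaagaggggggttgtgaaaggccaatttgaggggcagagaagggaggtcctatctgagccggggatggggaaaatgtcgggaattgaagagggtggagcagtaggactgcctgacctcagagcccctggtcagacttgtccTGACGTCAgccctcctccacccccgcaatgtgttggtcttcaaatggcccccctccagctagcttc
Cd44: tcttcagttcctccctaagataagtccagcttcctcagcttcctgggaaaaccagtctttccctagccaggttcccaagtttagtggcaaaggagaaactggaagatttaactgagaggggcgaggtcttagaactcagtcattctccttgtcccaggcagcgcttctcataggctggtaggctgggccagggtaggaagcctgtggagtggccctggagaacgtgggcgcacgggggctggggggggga
Bgn: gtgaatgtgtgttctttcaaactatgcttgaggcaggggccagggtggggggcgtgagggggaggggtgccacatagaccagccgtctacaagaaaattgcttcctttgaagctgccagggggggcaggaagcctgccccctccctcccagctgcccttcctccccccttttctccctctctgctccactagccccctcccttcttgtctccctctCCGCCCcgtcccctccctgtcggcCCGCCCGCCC

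For these members, 6 motifs were searched on both strands in the 250 bases before the start of the RefSeq transcript, and their frequency was taken over 32851 promoters of the same length. Has1 held 1 CRE, the letters TGACGTCA, from 83 to 76 bases before the RefSeq start, which lies 17 bases beyond the end of the stretch shown, and no match to the other motifs. This motif was added after the Has1 window had been read, and 1.55% of all promoters held it. Bgn held 3 GC boxes (GGGCGG, read from the opposite strand), of which the last 2 overlap each other, and 32.7% of all promoters held a GC box. Cd44 and Fmod held none of the 6 motifs. Hyal2 held 1 GC box and 1 match to the TEAD motif GGAATG, which was present in 12.6% of all promoters, and Vcan held 2 GC boxes. The AP-1 letters TGANTCA were found in no member promoter and in 6.75% of all promoters. Likewise, no member promoter held the TATA box TATAAA, found in 12.4% of all promoters, or the CArG box, found in 1.47%. A match describes these letters and is not evidence that a factor binds there.

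Of the 10 members, 7 had a mean of at least 0.5 FPKM and were tested with limma on log2(FPKM + 0.5), with Benjamini-Hochberg adjustment over all 11593 genes tested. Has1, Has2, Cd44 and Hyal2 rose in the 4H group, Bgn fell, and Vcan and Dcn did not pass the test (adjusted p at most 0.05). Thus 4 of 7 were higher, where 22.6% of all genes tested were higher, and 1 of 7 was lower, where 24.1% of all genes tested were lower. Has1, Has2 and Cd44 were also differentially expressed, that is, changed by at least 1 on the log2 scale. In all genes tested, 2.61% were differentially expressed and higher, and 1.28% were differentially expressed and lower, a class that held no member. The groups did not overlap in 6 of the 7 tested members, against 56.7% of all genes tested. The median log2 fold change was 0.42 over the 7 members and -0.01 over all genes tested. The members' median is the value of Dcn, which did not pass the test. None of the 7 passed the filter through 1 group only. Has3, Lum and Fmod were below it. Read in the direction of transcription, no member shared a 75-base stretch of transcript with another gene of GENCODE M21. Overlaps of Has2 and Has3 with genes on the opposite strand are given below.

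**Figure D1:**
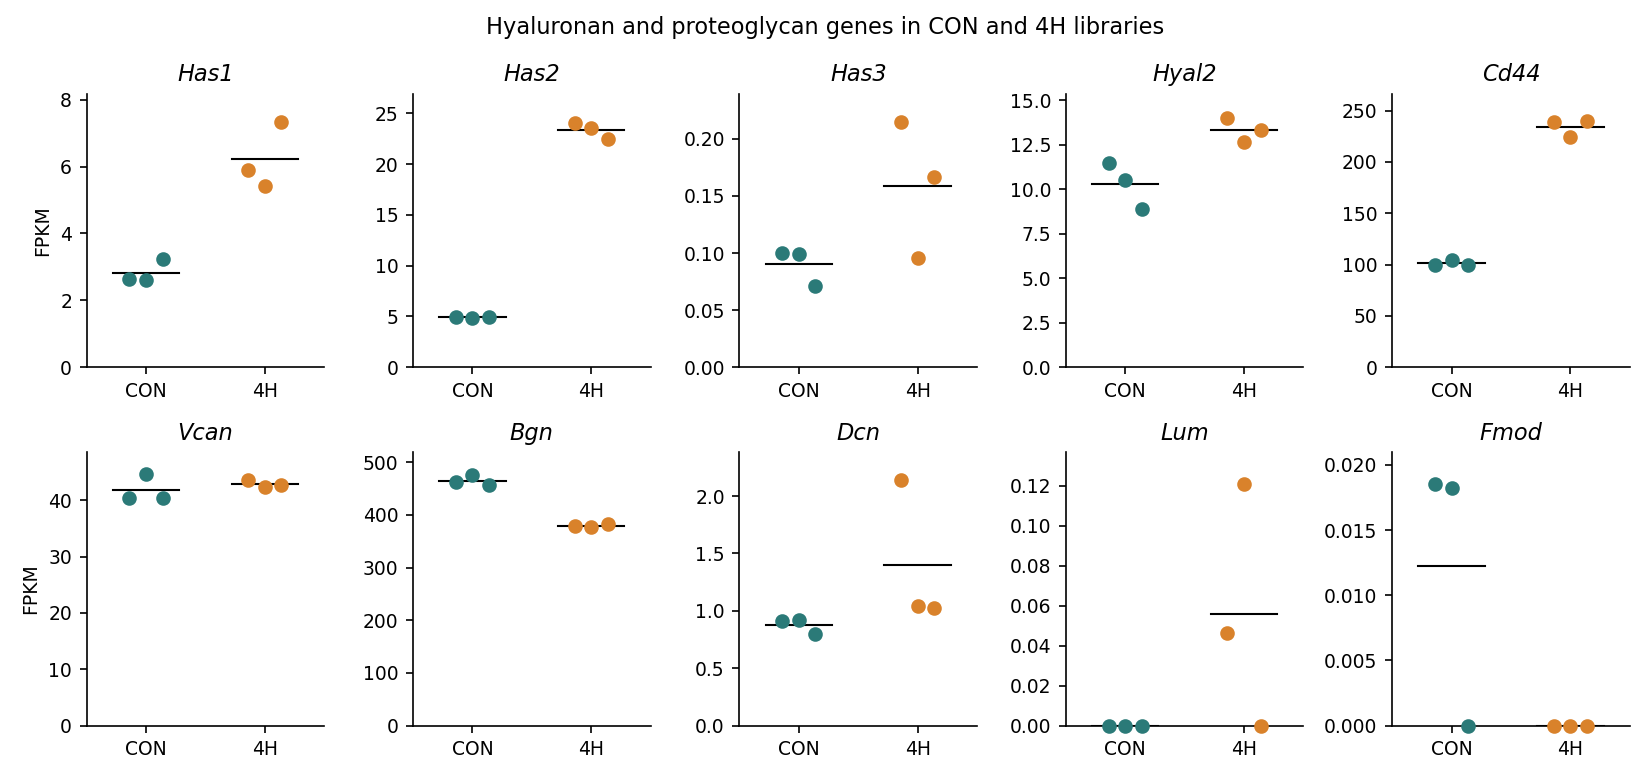
FPKM of each of the 10 members in the CON (green) and 4H (orange) libraries, 1 point per library with a line at the group mean and a scale of its own for each gene. Has2 lay at 4.89 to 4.95 in CON and 22.4 to 24.0 in 4H, whereas the groups of Vcan overlapped at 40.4 to 44.8, and Lum and Fmod were at or close to 0.

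Has2, the synthase gene that is essential for hyaluronan in the mouse embryo, had the largest rise of the members. It lies on chromosome 15 of GRCm38 (mm10) at chr15:56665627-56694539, minus strand (ENSMUSG00000022367). Has2 was at 4.95, 4.89 and 4.91 FPKM in CON replicates 1 to 3 and at 24.0, 23.5 and 22.4 FPKM in 4H replicates 1 to 3. The groups were far apart, and the spread within each was small, with means of 4.92 ± 0.0298 and 23.3 ± 0.804 FPKM (SD, n = 3 each). The ratio of the means was 4.75 and the log2 fold change was 2.14 (SE 0.05, 95% interval 2.02 to 2.25, limma with Benjamini-Hochberg adjusted p = 7.42e-08). This was the 28th largest rise among the 11593 genes tested. By level, Has2 moved from rank 8595 in the CON group to rank 3372 in the 4H group. Of its exon bases, 4.295% overlap the antisense gene Has2os, which was not analysed here, and whether reads were counted by strand is not given in the sources used here.

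Has1, a second hyaluronan synthase, was at 2.63, 2.61 and 3.22 FPKM in CON replicates 1 to 3 and at 5.91, 5.41 and 7.35 FPKM in 4H replicates 1 to 3 (ENSMUSG00000003665, chr17:17843323-17855205, minus strand). Every 4H library was above every CON library, and 4H replicate 3 was the highest. The means were 2.82 ± 0.349 and 6.22 ± 1.01 FPKM (SD, n = 3 each), a ratio of 2.20. The log2 fold change was 1.01 (SE 0.12, 95% interval 0.72 to 1.30, limma with Benjamini-Hochberg adjusted p = 0.000311), just past the fold threshold. It was 0.89 without 4H replicate 3, so that Has1 was then changed but no longer differentially expressed. The same held at 0.97 without CON replicate 1 and at 0.97 without CON replicate 2. 

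Has3, the third synthase, was close to 0, at 0.10, 0.0996 and 0.0709 FPKM in CON and 0.215, 0.0953 and 0.166 FPKM in 4H (ENSMUSG00000031910, chr8:106870242-106884566, plus strand). The groups overlapped, and the difference in means gave p = 0.3 (two-sided exact permutation test). Has3 shares 5.517% of its exon bases with Chtf8 on the opposite strand, a gene at 36.9 ± 1.29 FPKM in CON and 37.9 ± 1.70 FPKM in 4H (SD, n = 3 each). A second identifier that the annotation also names Chtf8 overlaps Has3 there, and it is listed as Derpc in the expression table, at 0.490 ± 0.544 FPKM in CON and 0.304 ± 0.339 in 4H. Values of Has3 this low can therefore not be told apart from reads of these genes if strand was not used in counting.

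The 3 synthase genes summed to 7.68, 7.59 and 8.21 FPKM in the CON libraries and to 30.1, 29.0 and 29.95 FPKM in the 4H libraries. Has2 made up 64.4%, 64.4% and 59.9% of this sum in CON replicates 1 to 3 and 79.7%, 81.1% and 74.9% in 4H replicates 1 to 3. The share of Has1 was correspondingly 35.97% ± 2.87 in CON and 20.9% ± 3.16 in 4H (SD, n = 3 each), although its own level rose. Has2 was thus the most abundant synthase transcript in all 6 libraries. The ratio of Has2 to Has1 was 1.76 ± 0.203 in CON and 3.82 ± 0.681 in 4H.

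**Figure D2:**
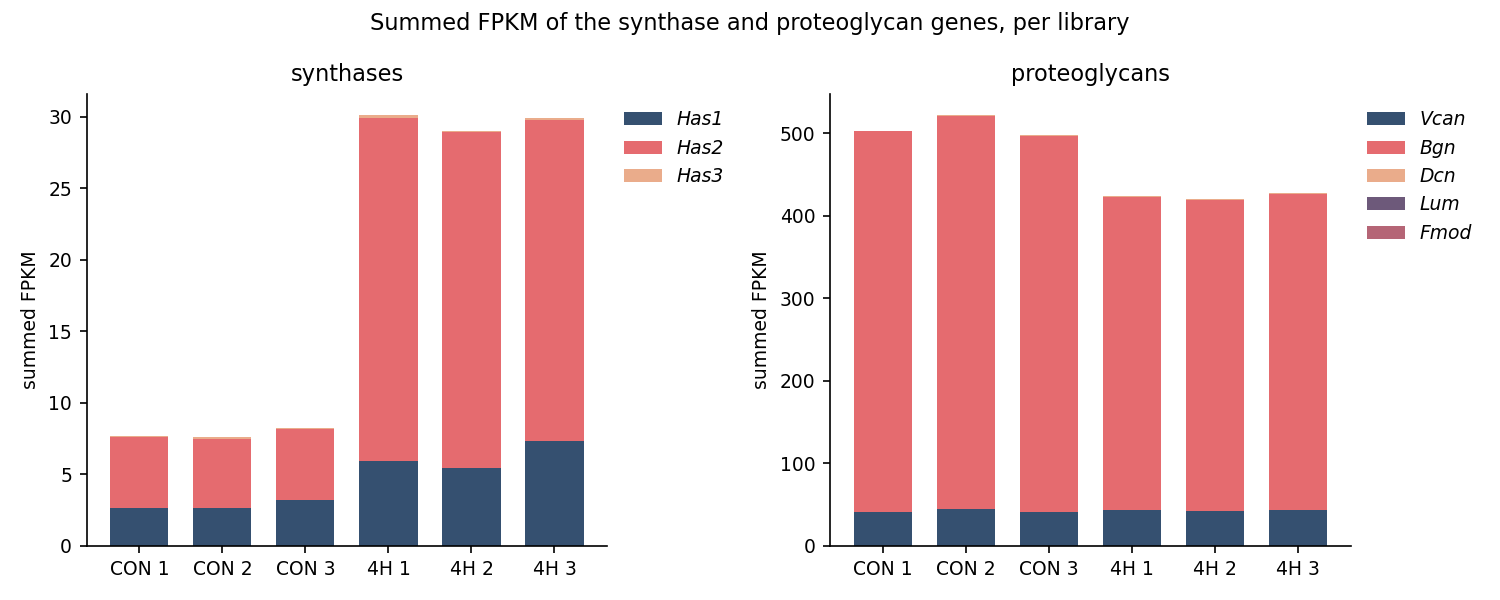
Summed FPKM per library of the synthases (left) and of the proteoglycans (right), stacked by gene, each axis starting at 0. The synthase sum was 7.59 to 8.21 in CON and 29.0 to 30.1 in 4H and was mostly Has2, and the proteoglycan sum was 497.2 to 521.8 in CON and 420.3 to 427.5 in 4H and was mostly Bgn, with Dcn, Lum and Fmod too low to be seen.

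Hyal2, a membrane-anchored hyaluronidase that cuts long hyaluronan, was at 11.5, 10.5 and 8.86 FPKM in CON replicates 1 to 3 and at 13.98, 12.6 and 13.3 FPKM in 4H replicates 1 to 3 (ENSMUSG00000010047, chr9:107567945-107572779, plus strand). The groups did not overlap, but CON replicate 1 and 4H replicate 2 were close. The means were 10.3 ± 1.32 and 13.3 ± 0.669 FPKM (SD, n = 3 each), and the log2 fold change was 0.37 (SE 0.09, 95% interval 0.16 to 0.58, limma with Benjamini-Hochberg adjusted p = 0.0117). Transcripts of the main synthase were below those of Hyal2 in the CON group, with a Has2 to Hyal2 ratio of 0.484 ± 0.0637, and above them in the 4H group, with a ratio of 1.75 ± 0.0954 (SD, n = 3 each).

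Cd44, the main cell surface receptor of hyaluronan, was the most abundant of the members that rose (ENSMUSG00000005087, chr2:102811141-102901665, minus strand). It was at 99.98, 104.5 and 99.5 FPKM in CON replicates 1 to 3 and at 238.8, 224.1 and 239.9 FPKM in 4H replicates 1 to 3. All 4H libraries were more than 100 FPKM above all CON libraries. The means were 101.3 ± 2.75 and 234.3 ± 8.86 FPKM (SD, n = 3 each), a ratio of 2.31, with a log2 fold change of 1.20 (SE 0.04, 95% interval 1.12 to 1.29, limma with Benjamini-Hochberg adjusted p = 1.66e-07). By level, Cd44 moved from rank 602 to rank 204 of the genes tested. The gene has many splice forms, which the table of gene levels does not separate. Because Has2 rose more, the ratio of Cd44 to Has2 was 20.6 ± 0.664 in CON and 10.1 ± 0.592 in 4H.

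Vcan, the gene of versican, which binds hyaluronan at its amino-terminal end and carries chondroitin sulfate chains, was at 40.4, 44.8 and 40.4 FPKM in CON and 43.6, 42.3 and 42.7 FPKM in 4H (ENSMUSG00000021614, chr13:89655312-89742509, minus strand). The groups overlapped. The means were 41.8 ± 2.52 and 42.9 ± 0.673 FPKM (SD, n = 3 each), and the log2 fold change of 0.04 (95% interval -0.07 to 0.14) did not pass the test (limma with Benjamini-Hochberg adjusted p = 0.553). The splice forms of Vcan, which differ in the number of attached chains, are not separated in the table.

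Bgn, the gene of biglycan, a small proteoglycan with chondroitin or dermatan sulfate chains, was the most abundant member (ENSMUSG00000031375, chrX:73483602-73495933, plus strand). It was at 461.7, 476.1 and 456.1 FPKM in CON replicates 1 to 3 and at 378.2, 376.8 and 383.8 FPKM in 4H replicates 1 to 3. Every 4H library was below every CON library. The means were 464.6 ± 10.3 and 379.6 ± 3.67 FPKM (SD, n = 3 each), a ratio of 0.817, with a log2 fold change of -0.29 (SE 0.03, 95% interval -0.35 to -0.23, limma with Benjamini-Hochberg adjusted p = 5.02e-05). The change ranked 1815 among the falls of all genes tested, and Bgn was at level rank 82 in CON and 106 in 4H. In FPKM, its difference between the group means was larger than that of Has2.

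Dcn, the gene of decorin, a close relative of biglycan, was low in these myoblasts (ENSMUSG00000019929, chr10:97479609-97518143, plus strand). It was at 0.912, 0.919 and 0.797 FPKM in CON replicates 1 to 3 and at 2.14, 1.04 and 1.02 FPKM in 4H replicates 1 to 3. The groups did not overlap, but 4H replicate 1 alone was high. The log2 fold change of 0.42 (95% interval -0.08 to 0.91) did not pass the test (limma with Benjamini-Hochberg adjusted p = 0.15), and it was 0.15 without 4H replicate 1 (adjusted p = 0.411). The cause of the high value in 4H replicate 1 was not tested.

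Lum, the gene of the keratan sulfate proteoglycan lumican, was listed at 0 in all 3 CON libraries and at 0.0464, 0.121 and 0 FPKM in 4H replicates 1 to 3 (ENSMUSG00000036446, chr10:97565128-97572703, plus strand). Fmod, the gene of fibromodulin, was at 0.0185, 0.0182 and 0 FPKM in the CON libraries and at 0 in all 4H libraries (ENSMUSG00000041559, chr1:134037254-134048277, plus strand). Both overlapped between the groups, with p = 0.4 for each (two-sided exact permutation test). Of the small leucine-rich proteoglycan genes nearby, Kera and Epyc, which follow Dcn and Lum on chromosome 10, reached at most 0.0259 FPKM, and Prelp and Optc, on the same side of Fmod on chromosome 1, were below 0.1 FPKM in every library.

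The exact permutation test of the difference in mean FPKM gave p = 0.1 for Has1, Has2, Cd44, Hyal2, Bgn and Dcn, the smallest value that 3 libraries against 3 allow, and p = 0.6 for Vcan. Has3, Lum and Fmod, fitted without a filter on low values, had log2 fold changes of 0.16, 0.15 and -0.03 (limma with Benjamini-Hochberg adjusted p of 0.163, 0.207 and 0.469). The labels call the libraries replicate biosamples and do not say whether they came from separate cultures, so the p-values measure the spread between these libraries, which may be technical.

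**Figure D3:**
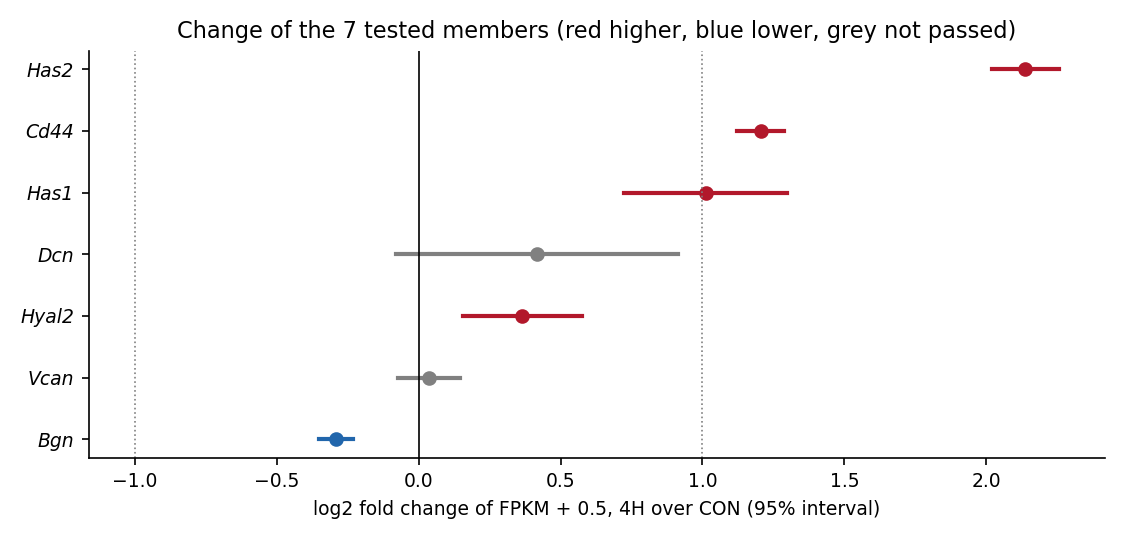
Log2 fold change of FPKM + 0.5, 4H over CON, for the 7 tested members, with 95% intervals from limma and dotted lines at the fold threshold of 1 in each direction. Has2 at 2.14 and Cd44 at 1.20 lay beyond the threshold with their whole intervals, the interval of Has1 crossed it, and those of Dcn and Vcan crossed 0.

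**Figure D4:**
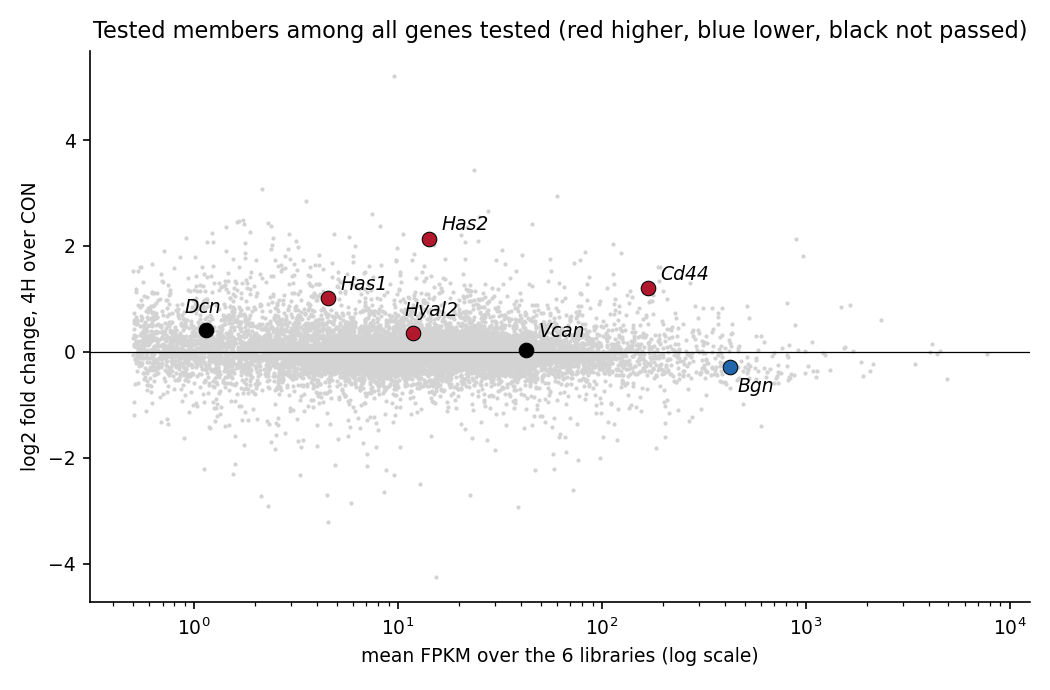
Log2 fold change, 4H over CON, against mean FPKM over the 6 libraries on a log axis, for all 11593 genes tested (grey) and the 7 tested members (red higher, blue lower, black not passed). Has2, Has1 and Cd44 lay above most genes of similar level, while Bgn at -0.29 and Vcan at 0.04 lay within the bulk of the genes.

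The proteoglycan genes Vcan, Bgn, Dcn, Lum and Fmod together were at 507.3 ± 12.8 FPKM in CON and 423.96 ± 3.61 FPKM in 4H (SD, n = 3 each). Bgn made up 91.6% ± 0.295 of this sum in CON and 89.5% ± 0.302 in 4H. The share of Vcan was 8.24% ± 0.293 and 10.1% ± 0.153, and that of Dcn was 0.173% ± 0.0109 and 0.330% ± 0.151. Since Cd44 rose while Bgn fell, the ratio of Bgn to Cd44 was 4.59 ± 0.0303 in CON and 1.62 ± 0.0527 in 4H.

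The other genes of the pathway were described from 9 lists of 85 genes in all, of which 47 could be tested. Of these, 22 were higher, 10 were lower and 15 did not pass, 46.8% and 21.3% against 22.6% and 24.1% of all genes tested, with a median log2 fold change of 0.06. Differential expression was met by 3 of the 47 in each direction, where 2.61% of all genes tested were differentially expressed and higher and 1.28% lower. Of the 3 lower genes, Ptx3 passed the filter through its CON level only. The counts of single lists below are to be read beside the same 22.6% and 24.1% of all genes tested. The lists were chosen with earlier results of these data known, so that their counts are a description.

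Among the 6 tested enzymes that make the UDP-sugar precursors of hyaluronan, 4 rose, 1 fell and 1 did not pass. Ugdh, which oxidises UDP-glucose to UDP-glucuronic acid, was at 82.4, 88.8 and 85.2 FPKM in CON and 155.9, 156.9 and 154.4 FPKM in 4H, without overlap. Its log2 fold change was 0.86 (limma with Benjamini-Hochberg adjusted p = 5.85e-07). Gnpnat1, the acetyltransferase of the hexosamine pathway, fell from 16.3 ± 1.10 to 6.92 ± 0.542 FPKM (adjusted p = 7.58e-06). The other tested enzymes of that pathway rose less than Ugdh. Ratios of the means were 1.34 for Gfpt1, the first and rate-limiting step, 1.41 for Pgm3 and 1.27 for Uap1 (adjusted p = 0.000184, 0.000413 and 0.000455). Ugp2, which supplies UDP-glucose, was at 34.3 ± 1.03 and 34.1 ± 1.01 FPKM (adjusted p = 0.909).

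Genes of hyaluronan degradation other than Hyal2 moved in both directions. Cemip2, whose product has been described as a cell surface hyaluronidase, was at 9.10, 9.29 and 9.32 FPKM in CON and 18.9, 19.2 and 19.4 FPKM in 4H. It was differentially expressed, with a log2 fold change of 1.02 (limma with Benjamini-Hochberg adjusted p = 1.08e-06). Hyal1 and Hexa, enzymes of the lysosome, were lower, with Hyal1 at 2.63 ± 0.296 and 1.84 ± 0.0902 FPKM (adjusted p = 0.0116) and Hexa at 81.4 ± 1.80 and 68.4 ± 0.595 FPKM (adjusted p = 0.00028). Gusb, the lysosomal beta-glucuronidase, was at 29.3 ± 2.18 and 28.7 ± 0.592 FPKM (adjusted p = 0.734). Hyal1 lies next to Hyal2 on chromosome 9, and the pair moved in opposite directions.

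Of the 19 other receptors, link proteins and hyaluronan-binding proteins, 4 were tested. Ptx3, a pentraxin that takes part in cross-linking hyaluronan matrices, was at 2.94, 3.01 and 2.74 FPKM in CON and 0.256, 0.156 and 0.152 FPKM in 4H. It passed the filter through its CON level only. The log2 fold change was -2.31 (limma with Benjamini-Hochberg adjusted p = 2.66e-06). The link protein gene Hapln4 fell from 1.73 ± 0.193 to 1.11 ± 0.201 FPKM (adjusted p = 0.0203), and Layn, the gene of the hyaluronan receptor layilin, rose from 29.5 ± 1.59 to 34.9 ± 0.306 FPKM (adjusted p = 0.00304). Hmmr, a hyaluronan-binding protein of the mitotic spindle, was at 38.6 ± 1.65 and 38.6 ± 1.12 FPKM (adjusted p = 0.998). Hapln1, which lies beside Vcan and whose product links hyaluronan to versican, was listed at 0 in 5 libraries and at 0.0207 FPKM in 4H replicate 3. The call of Hapln4 was lost without CON replicate 1 (adjusted p = 0.07), CON replicate 2 (0.0574) or 4H replicate 1 (0.0603) and with a replicate block (0.0517).

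The ERM proteins tie the tail of CD44 to actin filaments. Ezr rose from 82.1 ± 2.38 to 115.5 ± 2.59 FPKM (limma with Benjamini-Hochberg adjusted p = 1.08e-05) and Msn from 303.2 ± 2.14 to 393.3 ± 0.675 FPKM (adjusted p = 5.24e-06). Rdx, the third of them, fell from 57.3 ± 0.690 to 51.7 ± 1.20 FPKM (adjusted p = 0.00669). Ratios of the means were 1.41, 1.30 and 0.903, smaller changes than that of Cd44.

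Of the 13 other small leucine-rich proteoglycans, 3 were tested. Ogn, the gene of osteoglycin, was at 9.11, 10.8 and 10.5 FPKM in CON and 4.58, 3.43 and 3.63 FPKM in 4H, without overlap. It was differentially expressed and lower, with a log2 fold change of -1.29 (limma with Benjamini-Hochberg adjusted p = 4.29e-05). Its neighbours on chromosome 13, Omd, Aspn and Ecm2, were below 0.3 FPKM in every library. Podnl1, which encodes a podocan-like protein, rose from 13.4 ± 0.391 to 15.9 ± 1.61 FPKM (adjusted p = 0.0329), and Tsku, the gene of tsukushi, was at 10.7 and 9.65 FPKM on average (adjusted p = 0.133). Podnl1 no longer passed without 4H replicate 2 or 3 or without any 1 of the CON replicates, with an adjusted p of 0.0564 to 0.104. Thus Bgn and Ogn fell, and Bgn remained by far the most abundant small proteoglycan transcript.

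The core proteins receive their chains in the Golgi apparatus. Of the 5 tested enzymes of the linker that joins chain and protein, 1 rose, namely the xylosyltransferase gene Xylt2, from 4.80 ± 0.302 to 5.61 ± 0.146 FPKM (limma with Benjamini-Hochberg adjusted p = 0.0441), and the median log2 fold change was 0.00. Leaving out any library other than CON replicate 1 ended this call, with an adjusted p of 0.0677 to 0.126, as did a replicate block (0.0791). Fam20b, the kinase of the linker and the most abundant of these genes, was at 17.3 ± 0.453 and 18.0 ± 0.556 FPKM (adjusted p = 0.35). Of the 14 tested enzymes of chondroitin and dermatan sulfate chains, 8 rose, 1 fell and 5 did not pass, with a median of 0.27. Chst11, a chondroitin 4-O-sulfotransferase, was at 7.17, 7.12 and 7.78 FPKM in CON and 18.9, 19.1 and 20.3 FPKM in 4H, a log2 fold change of 1.34 (adjusted p = 9.28e-07). Csgalnact1, which starts the chondroitin chain, rose from 8.95 ± 0.482 to 17.6 ± 0.521 FPKM (adjusted p = 5.46e-06), and the sulfotransferase gene Chst15 from 1.31 ± 0.0597 to 2.91 ± 0.452 FPKM (adjusted p = 0.000487). The 1 gene that fell was Chpf, a chondroitin polymerising factor, from 17.7 ± 0.615 to 13.8 ± 1.05 FPKM (adjusted p = 0.00234), while its relative Chpf2 rose from 18.8 ± 0.845 to 23.3 ± 0.359 FPKM (adjusted p = 0.00100).

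Of the 4 tested enzymes of keratan sulfate chains, 3 rose. Chst2, a sulfotransferase of N-acetylglucosamine, was differentially expressed at 2.86 ± 0.209 and 7.32 ± 0.0217 FPKM (limma with Benjamini-Hochberg adjusted p = 5.84e-06). Chst1 rose from 22.4 ± 0.809 to 28.3 ± 0.687 FPKM (adjusted p = 0.000406) and the galactosyltransferase gene B4galt1 rose with a ratio of the means of 1.12 (adjusted p = 0.0130). Among the 3 tested ADAMTS proteases that cleave versican, Adamts4 rose from 1.01 ± 0.120 to 1.81 ± 0.115 FPKM (adjusted p = 0.00281), Adamts5 fell from 1.29 ± 0.220 to 0.518 ± 0.126 FPKM (adjusted p = 0.00301), and Adamts1, the most abundant, was at 9.13 ± 0.523 and 9.52 ± 0.343 FPKM (adjusted p = 0.487). Ugdh, Gnpnat1, Hyal1 and Chpf2 share exon bases with another gene on the same strand in GENCODE M21, and how such reads were assigned is not given in the sources used here.

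**Figure D5:**
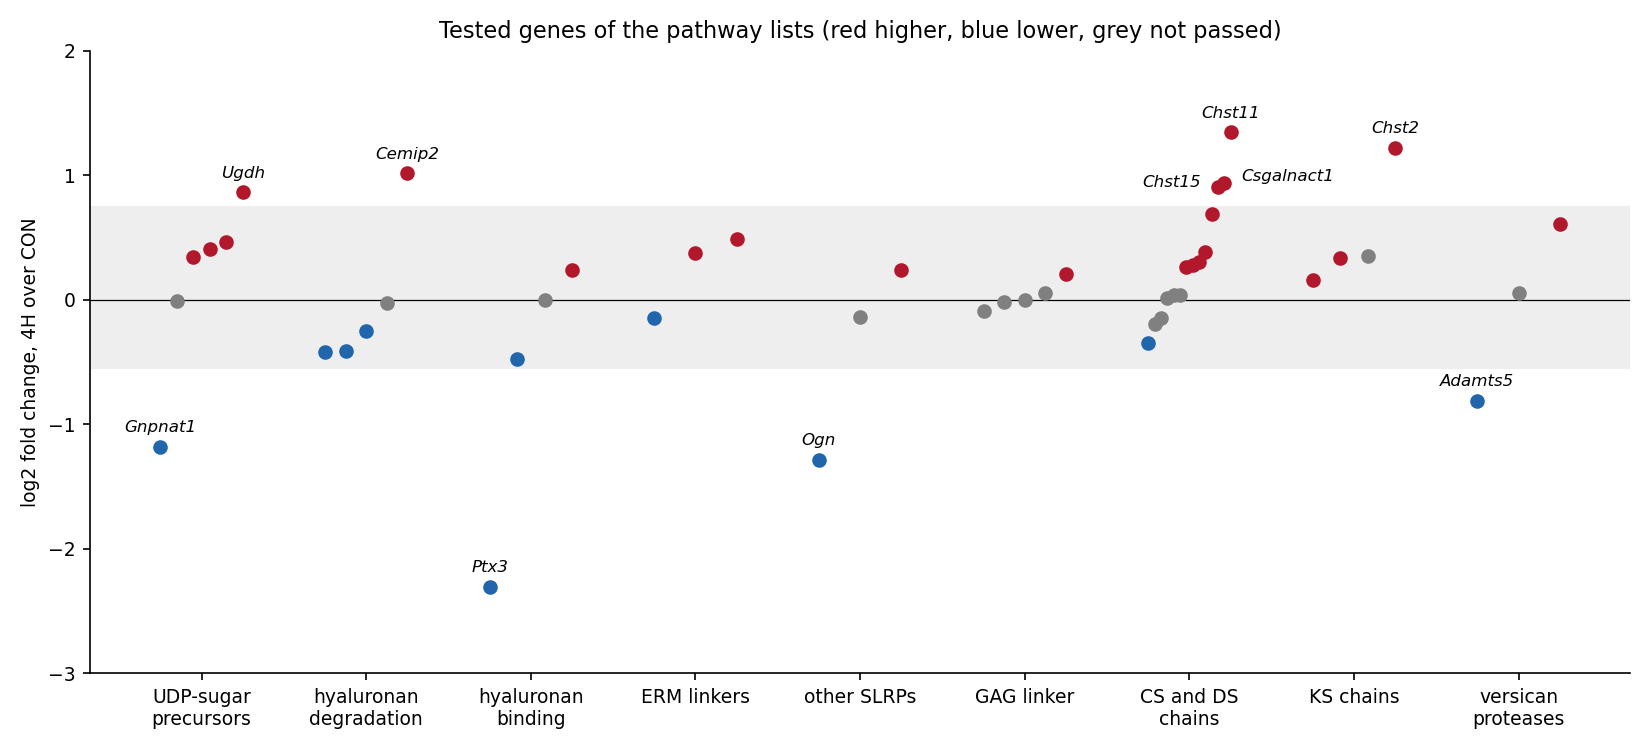
Log2 fold change, 4H over CON, of the 47 tested genes of the 9 pathway lists (red higher, blue lower, grey not passed), with grey shading between the 5th and 95th percentiles of all genes tested, -0.547 to 0.742. Ptx3 at -2.31, Ogn at -1.29 and Gnpnat1 at -1.18 lay lowest, and Chst11 at 1.34 and Chst2 at 1.22 lay highest.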

How the data were processed

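RNA of C2C12 cells (3 CON and 3 4H libraries, strand-specific poly(A) kit, 150 bp paired-end reads) was deposited by the authors as 1 table of FPKM values per gene. The submitters' processing notes name the build mm10. The aligner, the counting tool and the annotation were not given in the sources used here. The study's count model could not be used on FPKM. Values were therefore tested with limma 3.58.1 in R 4.3.3 (two-sided, trend on mean expression, no replicate block) on log2(FPKM + 0.5), for the 11593 genes whose mean reached 0.5 FPKM, with Benjamini-Hochberg adjustment. Fold changes on this scale understate those of low genes. The thresholds were an adjusted p of at most 0.05 and, for differential expression, a log2 fold change of 1 or more in either direction. The fit was tested on simulated data. Far fewer genes changed there than were called here, so that test does not measure the error of these calls. Single genes were compared by exact permutation tests (SciPy 1.17.1).

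The 10 members, the pathway lists and the marker lists were chosen with earlier results of these data known. Named genes were all members, genes overlapping their exons, and of each list the most abundant gene and up to 3 changed genes with the largest fold change and a mean of at least 1 FPKM. Gfpt1, Uap1, Ugp2, Tsku, Chpf, Adamts5, Gusb, Hapln1, the neighbouring genes and the marker genes were added to these names once their values had been seen. A gene that this rule names is not reported here. Positions and overlaps came from GENCODE M21 (GRCm38, the same assembly as mm10), and promoters from RefSeq. The 4H replicates 1, 2 and 3 follow the replicate numbers of the labels, whose titles skip a number. Depth is not held in FPKM, so that precision rests on the spread of 3 libraries. The alternatives were a pseudocount of 0.1 or 1, a minimum mean of 0, 1 or 5 FPKM, the replicate number as a block, limma without its trend or with array weights, TPM in place of FPKM, scaling by median ratios, quantile normalization, and leaving out each library in turn.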

Additional observations from a re-analysis of the deposited data

How the results depend on the processing

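Has1, Has2, Cd44, Hyal2 and Bgn kept their direction and an adjusted p of at most 0.05 under all alternatives that could test them, 17 for each and 16 for Has1, which has a mean below 5 FPKM, and Vcan and Dcn passed in none. The log2 fold change ranged from 2.04 to 2.24 for Has2, from 1.19 to 1.27 for Cd44, from 0.27 to 0.44 for Hyal2 and from -0.30 to -0.23 for Bgn. Has1 ranged from 0.89 to 1.12 and was below the fold threshold of 1 with a pseudocount of 1 (0.91), array weights (0.99) and quantile normalization (0.97), and without any of 3 libraries in turn, CON replicate 1 or 2 or 4H replicate 3.

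When only genes averaging 5 FPKM or more were kept, which leaves fewer genes, 6 pathway genes in place of 10 were lower and 245 genes in place of 450 were differentially expressed. After rescaling to TPM this number was 703. Values are larger in TPM, while the pseudocount and the minimum mean stayed at 0.5. On FPKM, a pseudocount of 0.1 gave 591 and a pseudocount of 1 gave 347. The cause of the rise to 703 was not tested. A replicate block left the members' calls as they were (Has1 log2 fold change 1.01, adjusted p = 0.00034) and gave 21 pathway genes higher and 9 lower, in place of 22 and 10. Of the pathway genes called, Hapln4, Podnl1, Ust and Xylt2 lost the call under 4, 7, 5 and 9 alternatives. Deviations of same-numbered libraries from their group means correlated at 0.025, -0.0929 and -0.126, by the replicate numbers in the labels. The deviations come from only 3 libraries per group, so such values cannot show whether libraries shared a batch. Other pairs reached 0.176, for CON replicate 3 with 4H replicate 2, whose titles share a number, and a block by titles was not fitted. The values of Has3, Lum, Fmod and Dcn are limited by their low level, and no counting error can be given.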
